A study of Danio rerio with 8 samples.

Results

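The genes described here are the zinc finger genes of zebrafish whose symbols run from znf1000 upward, a series of C2H2 zinc finger genes that was greatly expanded in zebrafish. The members were chosen by symbol: every gene of the deposited table with the letters znf and a number of 4 digits starting with 1, and with a mean above 0. This rule found 209 gene IDs with 172 symbols among the 32520 genes of the table. Where a symbol stood for several gene IDs, the ID with the largest mean was taken.

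RNA was sequenced from 4 control pools and 4 pools treated with 100 µg/ml of KT09, the ethanolic stem extract of Mahonia bealei. A pool was made of 75 whole AB strain embryos, yolk included. Treatment started at 2 hpf in E3 medium, with 25 embryos per well. Control embryos received DMSO at 0.5%, the solvent of the extract stocks. No DMSO level is given for the treated pools, so whether the solvent was matched is not known here. The labels give a collection at 8 hpf, during gastrulation. The Results of the paper give the same time, while its Discussion names a later one for this RNA. The paper describes slower epiboly in embryos treated with this extract, so stage and treatment cannot be told apart in these samples.

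The library names in the labels do not match the group for replicate 4: the library of control replicate 4 bears a name in the style of the treated group, and that of treated replicate 4 a name in the style of the controls. The titles and the treatment fields were followed. If 1 pool of each group had been exchanged, and the pools of a group were otherwise alike, no ratio of the group means could be above 3. The ratio, with the whole of its 95% interval from counting error, was above 3 in 3 members, those with the highest ratios. The share of all genes above 3 is not given here. Whether the pools of a group were alike cannot be seen from group means, and an exchange of libraries was not tested. The values used are the authors' mean of each group. The authors' own standard errors and tests were left aside, so no spread between pools is given, no gene was tested here, and no result was computed without these libraries. A value below is the authors' control or treated mean of counts divided by size factors, and a ratio is the treated over the control mean. In this whole-embryo RNA, a change in the number of cells that express a gene and a change in RNA per cell cannot be told apart. The paper adds that maternal mRNA was included, mainly that of the yolk. By its account, changes may thus come from transcription, but also from maturation or degradation of RNA.

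C2H2 zinc finger proteins read DNA with tandem fingers, each a short fold held by a zinc ion between a pair of cysteines and a pair of histidines. The fingers touch a few neighboring bases each, so a change in the number or in the contact residues of the fingers changes the DNA sequence that is bound. In mammals, a large C2H2 family with a KRAB domain silences transposable elements. Ray-finned fish lack that family, and zebrafish carry their own large sets of finger genes, many of them in long tandem arrays on the long arm of chromosome 4. Many of the zebrafish genes are switched on in the blastula, when the embryo starts to transcribe its own genome, and for most of them no target and no mutant phenotype is known. None of the members below has a function that could be stated with certainty beyond that of its family.

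Most members had enough reads to compare. The condition of a mean above 0 removed 0 gene IDs. Of the 172 genes, 170 had a mean of 10 or more over all pools, and these are counted below. The 2 others were znf1071, with 5.89 in control and 6.17 in treated pools, and znf1149, with 0.511 and 0.470. The means of the 170 genes ran from 15.1 to 6524, with a median of 159, and 115 genes had 100 or more. Added up, the 170 genes made 0.295% of all normalised reads in control and 0.401% in treated pools. The 10 genes with the most reads held 37.6% of the control sum. Since reads grow with transcript length, these values do not order the genes by expression.

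The sum of the 170 genes was 47724 in control and 67740 in treated pools, 1.42 times as much. Of the 170 genes, 151 had a higher mean in treated than in control embryos, where 50.4% of all 15888 genes with a mean of 10 or more did. A difference of more than 1.5-fold, taken on the log2 scale after adding 1 to each mean, was seen in 28 genes upward and in 0 downward. Over all genes, 13.8% were higher and 15.1% lower by this measure. The share of members past 1.5-fold upward, 16.5%, was thus near that of all genes, while no member was past 1.5-fold downward. The median log2 ratio of the series was 0.33, with a middle range (25th to 75th percentile) from 0.14 to 0.51. That of all genes was 0.01, with a middle range from -0.35 to 0.33.

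**Figure D1:**
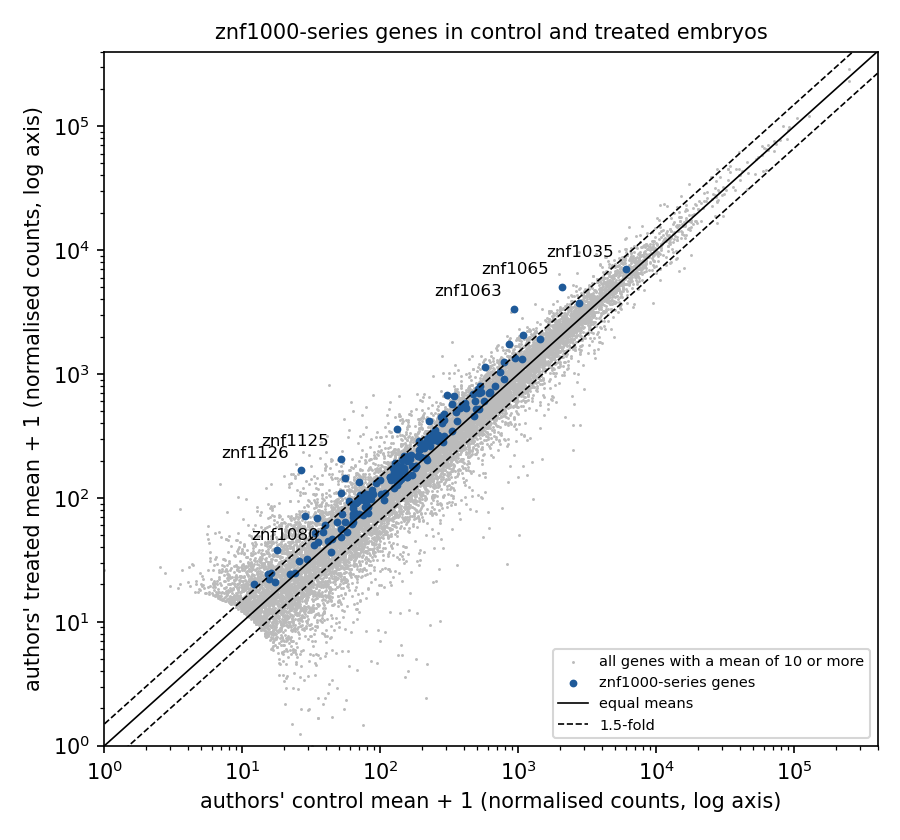
The authors' treated mean against the authors' control mean, each plus 1 and on a log axis, for the znf1000-series genes (blue) and all genes with a mean of 10 or more (grey). The solid line marks equal means and the dashed lines 1.5-fold. Of the 170 genes of the series, 151 lie above the line of equal means, 28 lie above the upper dashed line and 0 below the lower.

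The smallest log2 ratio in the series was -0.28, and 95 of the 170 genes lay within 1.3-fold of equal means, a share of 55.9% where all genes had 54.1%. The share within 1.3-fold was thus near that of all genes. The 75 genes past 1.3-fold were all higher, and the 19 lower genes were all among the 95. When the means were divided by their sum over all genes in place of the authors' size factors, which lowers every log2 ratio by about 0.07, 141 genes were higher and 29 lower. The share of all genes that were higher on that scale is not given here.

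Each unit of a group mean stands for about 4 reads, 1 per pool: the smallest steps of the means place the relative depth of the pools between 0.820 and 1.14 in the control and between 0.980 and 1.16 in the treated group. With 4 times the mean taken as the reads behind it, an exact Clopper-Pearson 95% interval was computed for each ratio. This interval covers counting error only, and differences between pools of embryos come on top. It lay above 1 in 122 of the 170 genes, below 1 in 0, and held 1 in 48. It lay wholly beyond 1.5-fold in 21 genes. The same intervals were not computed over all genes, so these counts do not set the series apart from other genes.

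The highest ratios belonged to znf1126 and znf1125. The mean of znf1126 (ENSDARG00000103458) was 25.6 in control and 166 in treated pools, a ratio of 6.49 (counting interval 5.28 to 8.10). That of znf1125 (ENSDARG00000098758) was 51.1 in control and 205 in treated pools, a ratio of 4.01 (3.43 to 4.69). Both had few reads in control embryos, and the counting intervals of both lay far from 1.

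The third highest ratio was that of znf1063 (ENSDARG00000101245), and unlike the first pair it also had many reads. Its mean was 928 in control and 3345 in treated pools, a ratio of 3.60 (3.48 to 3.74). It belongs to a run of symbols, znf1060 to znf1066, whose 7 genes all lay at a log2 ratio between 1.00 and 1.85, with a median of 1.16. This run was singled out after its values were seen. A symbol number is a name and does not by itself give a place in the genome.

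Within the run, znf1065 (ENSDARG00000090366) had the most reads, with a mean of 2066 in control and 5062 in treated pools, a ratio of 2.45 (2.39 to 2.51). The mean of znf1060 was 855 in control and 1743 in treated pools, that of znf1066 was 568 and 1139, and that of znf1064 was 303 and 676. The genes of the run with fewer reads also lay past 2-fold. The mean of znf1061 was 130.1 in control and 359 in treated pools, a ratio of 2.76 (2.50 to 3.06), and that of znf1062 was 50.3 and 109, a ratio of 2.17 (1.84 to 2.58). Together the 7 genes had a sum of 4901 in control and 12434 in treated pools, a ratio of 2.54, and made up 37.6% of the increase of the whole series. The other 163 genes had a summed ratio of 1.29 and a median log2 ratio of 0.32. Of these 163 genes, 21 were past 1.5-fold upward, where 13.8% of all genes were.

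**Figure D2:**
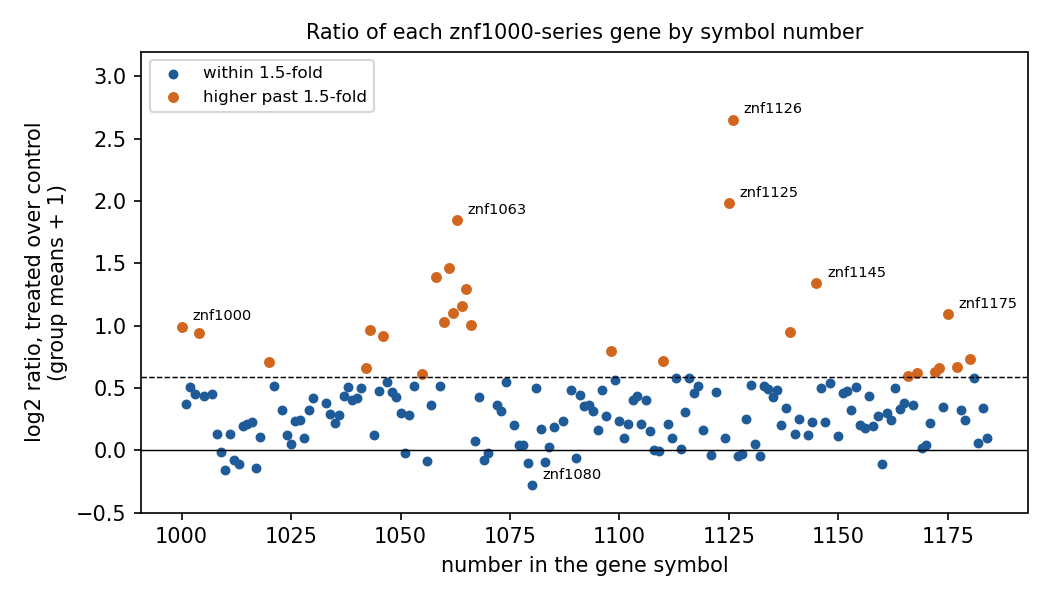
Log2 ratio of the group means plus 1, treated over control, of each of the 170 genes by the number in its symbol. Orange points are the 28 genes past 1.5-fold (dashed line), blue points the others, and the 7 genes znf1060 to znf1066 all lie at 1.00 or above.

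Higher past 2-fold were 12 genes, 7.06% of the series where 5.78% of all genes were, and lower past 2-fold were 0, where 6.51% of all genes were. Beside the 9 genes above, these were znf1058, znf1145 and znf1175. The mean of znf1058 was 54.5 in control and 145 in treated pools, a ratio of 2.66 (2.27 to 3.12). That of znf1145 was 27.3 in control and 71.0 in treated pools, a ratio of 2.59 (2.08 to 3.28). The mean of znf1175 was 16.7 and 36.8, a ratio of 2.20 whose interval of 1.63 to 2.97 is wide because few reads stand behind it.

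Between 1.5-fold and 2-fold lay 16 more genes. Those with many reads included znf1043, with a ratio of 1.96 (1.84 to 2.09), znf1004 with 1.92 (1.85 to 1.99), znf1046 with 1.89 (1.74 to 2.05) and znf1098 with 1.74 (1.63 to 1.87). The znf1004 gene alone had a mean of 1074 in control and 2060 in treated pools. For the scarcest of these 16 genes, znf1180, with a mean of 11.1 and 19.1, the interval reached from 1.18 to 2.56. The interval lay above 1 in each of the 28 genes past 1.5-fold. With means of 15.1 or more, a difference past 1.5-fold gives such an interval by itself, so this adds no support for these genes.

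Of the 10 genes with the most reads, 5 stood out less. The znf1035 gene (ENSDARG00000042969), with the most reads of the series, had a mean of 6032 in control and 7016 in treated pools, a ratio of 1.16 (1.14 to 1.18). The ratio was 1.37 (1.33 to 1.40) for znf1007, whose mean was 2744 and 3752, and 1.33 (1.29 to 1.38) for znf1040, whose mean was 1430 and 1909. It was 1.43 (1.37 to 1.49) for znf1133 and 1.23 (1.18 to 1.28) for znf1050. The remaining 5 were znf1065, znf1063, znf1004 and znf1060, given above, and znf1042, with a ratio of 1.58 (1.51 to 1.65).

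At the low end, 19 genes had a lower mean in treated embryos, and none of their counting intervals left out 1. The lowest ratio was that of znf1080, with a mean of 42.9 in control and 35.2 in treated pools, a ratio of 0.821 (0.651 to 1.03). Next was znf1010, with 169 in control and 151 in treated pools, a ratio of 0.897 (0.802 to 1.00). The ratio was 0.903 for znf1017, 0.923 for znf1013, 0.925 for znf1160 and 0.928 for znf1079. It was 0.934 for znf1083, 0.941 for znf1056, 0.946 for znf1069 and 0.948 for znf1012. Among the 12 lowest, znf1090 had the most reads, 474 in control and 453 in treated pools, with a ratio of 0.957 (0.897 to 1.02), and the ratio of znf1132 was 0.966. For these genes, the counting intervals thus did not resolve a direction.

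**Figure D3:**
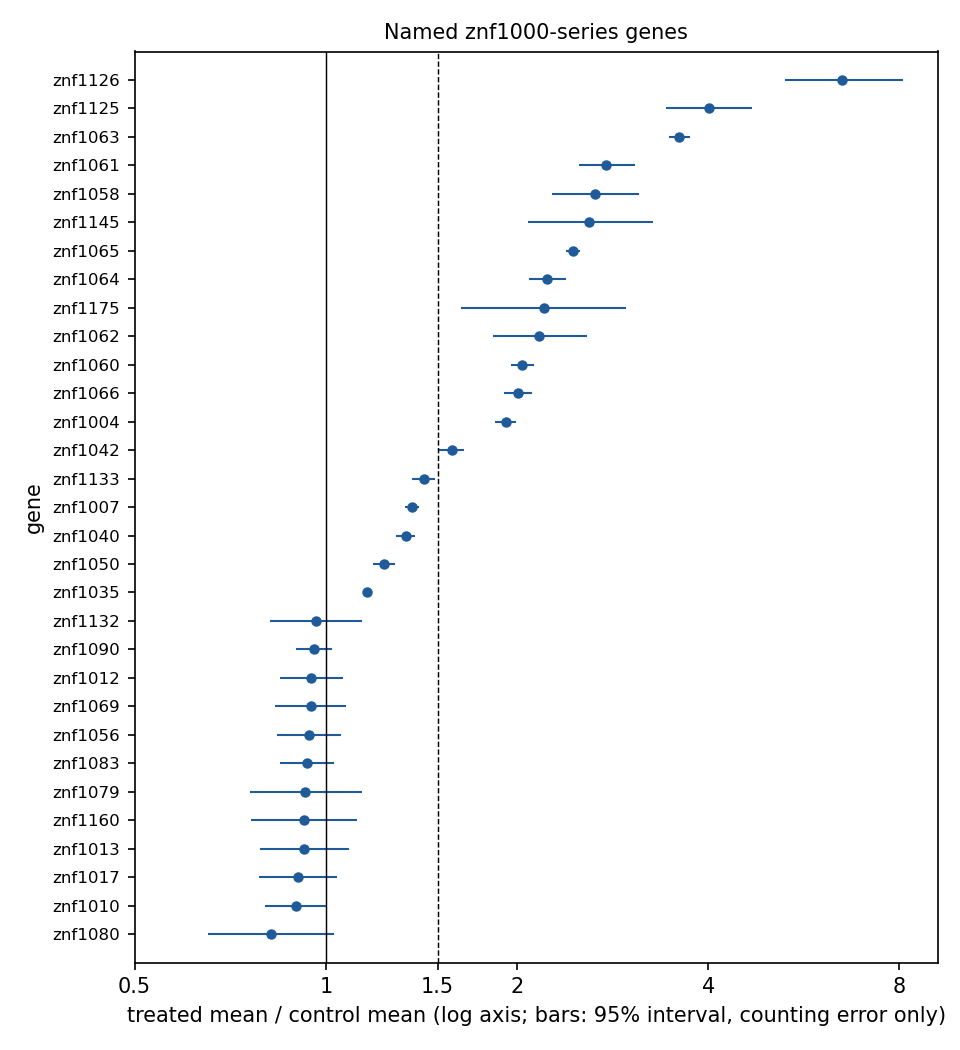
Ratio of the authors' treated to control mean, on a log axis, of the 10 genes with the most reads, the 12 with the highest and the 12 with the lowest ratio (31 genes in all). Bars are exact 95% intervals from counting error only, the solid line marks equal means and the dashed line 1.5-fold. The bars of the 12 lowest genes all cross 1, and that of znf1126 reaches from 5.28 to 8.10.

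The ratio varied little with the number of reads of a gene. Across the 170 genes, which share the same libraries and are not independent, the rank correlation of mean and log2 ratio was 0.18. The median log2 ratio was 0.32 in the 55 genes with a mean under 100, 0.31 in the 89 genes from 100 to under 500, and 0.44 in the 26 genes of 500 or more. In all genes of the same bands it was -0.03, -0.03 and 0.05. All 26 members in the highest band had a higher mean in treated embryos, where 56.0% of all genes of that band did. Past 1.5-fold upward were 7 of these 26 members, 26.9% where the band had 8.16%, and past 2-fold 4, or 15.4% where the band had 1.56%. The 4 past 2-fold were znf1060, znf1063, znf1065 and znf1066, all of the run singled out above after its values were seen. Among the 7, znf1043, with 340 in control and 665 in treated pools, reached the band through its treated mean. In the 2 lower bands, the members past 1.5-fold upward were 21.8% and 10.1%, where all genes had 20.5% and 11.0%.

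Zinc finger genes with other numbers were set beside the series. Of 123 other symbols made of znf and 1 to 3 digits, 108 had a mean of 10 or more. Of these, 71 were higher (65.7%, where 50.4% of all genes were) and 37 lower in treated embryos, with a median log2 ratio of 0.14. Past 1.5-fold were 15 upward (13.9%) and 14 downward (13.0%), near the 13.8% and 15.1% of all genes. These 108 genes reached further down than the znf1000 series, to znf710a, with a mean of 874 in control and 181 in treated pools. Upward, only znf831, with 1.52 and 26.8, lay beyond the series, and it passed the minimum through its treated mean alone. The next highest, znf76, had a log2 ratio of 1.65, below the 2.65 of znf1126.

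A split by number, made after these values were seen, set apart the symbols just below the series. All 25 genes with a number of 900 or more lay between znf970 and znf999. Of these, 24 were higher in treated embryos (96%, where 50.4% of all genes were), and the median log2 ratio was 0.43. Past 1.5-fold were 7 upward (28%) and 0 downward, where all genes had 13.8% and 15.1%. Among the 25, znf995 had the most reads, with a mean of 681 in control and 1615 in treated pools. The 83 genes with lower numbers, many of which are orthologs of human ZNF genes, had a median log2 ratio of 0.05. Of the 83, 8 (9.64%) were past 1.5-fold upward and 14 (16.9%) downward. Their range from -2.26 to 3.46, the latter that of znf831, encloses that of the 25 genes. The 1.65 of znf76 also lay above the highest of the 25, 1.24. The difference between these groups of genes was not tested.

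**Figure D4:**
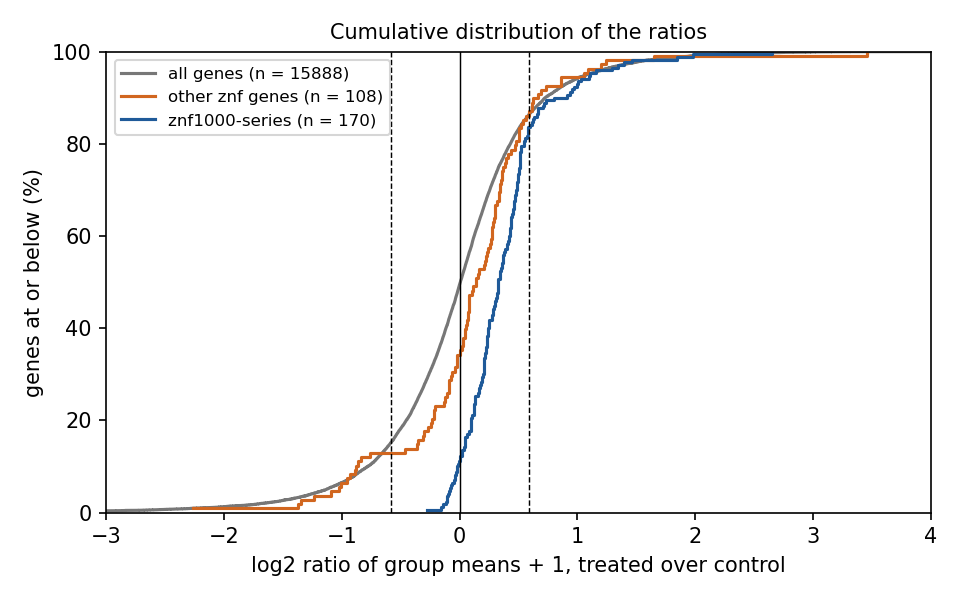
Share of genes (%) at or below each log2 ratio of group means plus 1, treated over control, for all genes with a mean of 10 or more (grey, n = 15888), the other znf genes (orange, n = 108) and the znf1000 series (blue, n = 170). Dashed lines mark 1.5-fold, and the axis leaves out all-gene values below -3 and above 4. The blue curve starts at -0.28 and has its median at 0.33, while that of all genes has its median at 0.01.

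Tandem families of finger genes can hold similar copies, between which reads may be shared or split, so the values of single members are uncertain. Similarity between the members was not measured here. In the table, 33 symbols were carried by several gene IDs, 29 by 2 and 4 by 3. Of the 37 further IDs left out by the rule, 35 had a mean of 10 or more. They were higher in treated embryos in 33 cases, where 50.4% of all genes were. Past 1.5-fold were 6 upward and 0 downward, where all genes had 13.8% and 15.1%. Their median log2 ratio of 0.31 was near the 0.33 of the IDs that were taken. As reads may be shared between copies, these IDs may not be independent of those taken.

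In 31 symbols, the first and the second ID both had a mean of 10 or more, and their log2 ratios differed by a median of 0.19. The widest gap, 2.13, was seen in znf1127. Its larger ID, ENSDARG00000116177, had a mean of 130 in control and 126 in treated pools, while the smaller, ENSDARG00000093220, had 21.1 and 92.7. The smaller ID is the one that bears the symbol in the gene-name table. In znf1091, the larger ID had 133 in control and 181 in treated pools and the smaller 17.6 and 58.3. In znf1137, the larger ID had log2 ratio 0.20 and the smaller 0.91.

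**Figure D5:**
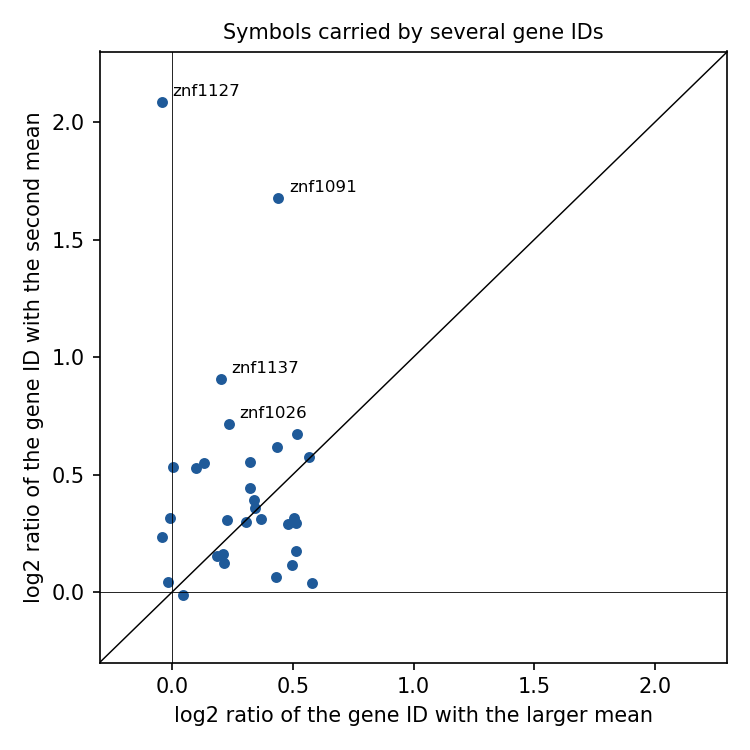
Log2 ratio (treated over control, group means plus 1) of the gene ID with the second largest mean against that of the ID with the largest mean, for 31 symbols carried by several IDs. The diagonal marks equal ratios. The znf1127 IDs lie apart at -0.04 and 2.09, while the gap was under 0.5 in 26 of the 31 symbols.

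The symbols in the table were those of the authors' annotation. In the gene-name table used here, 148 of the 172 gene IDs had the same symbol, 17 another and 7 no entry. Among the genes with the most reads, znf1004 bears another name there.

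Neighboring genes of the series were compared through the order of genes in RefSeq's annotation of the GRCz12tu assembly, which is not the assembly of the files. Only 50 of the 172 symbols were found there, matched by symbol. For 42 of them the gene ID bears the same symbol in the gene-name table, and the place of the other 8 is uncertain. Of the 50, 24 lay on chromosome 4, within a run of 12100 annotated genes, and 18 in a group on chromosome 22, within a run of 78 genes. These runs were not limited to protein-coding genes, and members not found by symbol may lie between. The spacing of the series was thus not measured. The median log2 ratio on chromosome 4 was 0.27 (22 of 24 genes higher), or 0.42 over the 19 genes with the same symbol in both tables. On chromosome 22 it was 0.29 (17 of 18 genes higher), or 0.28 over 15 genes. Over the whole series the median was 0.33, with 151 of 170 genes higher, and 50.4% of all genes were higher.

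The ratios of near neighbors were compared. In the group on chromosome 22, znf1154, znf1179, znf1184 and znf1002 followed each other directly. The mean of znf1154 was 193 in control and 274 in treated pools, a ratio of 1.42 (1.29 to 1.56), and that of znf1179 was 128 and 152, a ratio of 1.19 (1.05 to 1.34). The ratio was 1.07 (0.857 to 1.33) for znf1184 and 1.45 (1.02 to 2.04) for znf1002, so the counting intervals of direct neighbors overlapped in this stretch. Elsewhere in the group they did not always do so. With 1 gene between them, znf1169 had a ratio of 1.01 (0.846 to 1.21), below the interval of znf1154. Likewise, znf1157 had 1.35 (1.16 to 1.58) and znf1175 2.20 (1.63 to 2.97), though the ID of znf1157 bears another name in the gene-name table. On chromosome 4, znf1041 and znf1067 also followed each other directly. Their ratios were 1.41 (1.35 to 1.48) and 1.06 (0.992 to 1.12), and these intervals did not overlap. The ID of znf1041 bears another name in the gene-name table, so its place is uncertain. The 2 members on chromosome 15, znf1007 and znf1010, had 2 genes between them, with ratios of 1.37 (1.33 to 1.40) and 0.897 (0.802 to 1.00), whose intervals did not overlap. The 120 members with a mean of 10 or more that were not found in RefSeq had a median of 0.35 and held 23 of the 28 genes past 1.5-fold, so most of the genes past 1.5-fold are not part of this comparison.

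Early embryonic genes from lists chosen for this comparison, with earlier results of these data known, were set beside the series. Over all genes, 50.4% were higher, 13.8% were past 1.5-fold upward and 15.1% downward. Among 10 activators of the zygotic genome and their relatives, 8 were higher in treated embryos and 3 past 1.5-fold, with a median log2 ratio of 0.22. The mean of pou5f3, a POU factor that opens the zygotic genome, was 10649 in control and 23138 in treated pools, and that of nanog, its homeobox partner, 385 and 766. The SoxB1 gene sox19b, the maternal partner of both, had 1241 and 886. The other SoxB1 genes of the list were higher: sox3, also past 1.5-fold, had 3496 in control and 6137 in treated pools, and sox2 and sox19a had log2 ratios of 0.20 and 0.25. Of 20 genes transcribed early in the blastula or gastrula, 17 had a mean of 10 or more, 14 of them higher, with a median of 0.49. Past 1.5-fold were 7 upward and 1 downward. Among the 7, isg15, with 4.75 in control and 15.6 in treated pools, passed the minimum through its treated mean alone. The homeobox gene sebox had a mean of 20.6 in control and 122 in treated pools, and foxi1 of the ectoderm, which was lower, 1839 and 954. Among 16 genes of heterochromatin and repeat silencing, the median was 0.02, with 2 past 1.5-fold upward and 0 downward. These were morc3b, of a family of chromatin ATPases, with 41.4 in control and 814 in treated pools, and the DNA methyltransferase gene dnmt3aa, with 86.9 and 191. The paper already lists sebox and morc3b among its most affected genes. The part of the early genes' shift in that of the zinc finger genes was not tested.

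All 8 gastrula markers listed were found in both groups, with a median log2 ratio of 0.27. Of these, 3 were past 1.5-fold upward and 0 downward, where 13.8% and 15.1% of all genes were. The mean of tbxta, of the margin and axial mesoderm, was 5375 in control and 9804 in treated pools, and that of the endoderm gene sox32 was 1309 and 2168. In all, 6 of the 8 were higher and 2 lower. The lower ones were the endoderm gene sox17, with 843 and 720, and chrd of the organizer, with 4980.4 and 4527. The gsc gene of the prechordal plate was higher, with 587 in control and 813 in treated pools, and krt4 of the enveloping layer had 54489 and 56593. Of 4 markers of later tissues 2 had a mean under 10, myl7 of the heart with 0.259 in control and 0.494 in treated pools. The germ cell gene ddx4, the third marker past 1.5-fold, had a mean of 1004 in control and 2309 in treated pools, and elavl3 of neurons 129 and 57.4. Whether these differences bear on the zinc finger genes was not tested.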

How the data were processed

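Whole-embryo RNA of 4 control and 4 treated pools was read from stranded mRNA libraries. The authors ran the nf-core rnaseq pipeline to obtain counts per gene of an Ensembl annotation (GRCz11) and compared the groups with DESeq2, whose version is not given in the sources used here. The deposited table holds signal values: the authors' counts divided by size factors and averaged over each group and over all pools. Its columns of the authors' own comparison (log2 fold change, standard error, statistic, p and adjusted p) were not used. As only the group means were used, no test was run and nothing is called significant.

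Ratios were taken as log2 of treated over control means after adding a pseudocount of 1, among genes with a mean of 10 or more over all pools, at 1.5-fold. Counting intervals used 4 times each mean as reads, which assumes size factors near 1 (relative depths ran from 0.820 to 1.16). Genes named are the 10 members with the most reads and the 12 with the highest and lowest ratios. Others were named after their values were seen. Members and lists were chosen with earlier results of these data known. Alternatives were other fold thresholds (1.3 and 2), minimums, pseudocounts, scalings and choices of gene ID. Gene order came from RefSeq (GRCz12tu), and no sequence was used. Computations ran in Python 3.11.15 with scipy 1.17.1, pandas 2.3.3 and numpy 2.4.6; figures were drawn with matplotlib 3.10.9.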

Additional observations from a re-analysis of the deposited data

How the results depend on the processing

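The count of 28 members past 1.5-fold upward became 75 at 1.3-fold and 12 at 2-fold, and the count downward was 0 at each. Of all 15888 genes, 3573 were higher and 3721 lower past 1.3-fold, and 5.78% were higher past 2-fold. Under other minimums, pseudocounts, scalings and choices of gene ID, the downward count was 0. The upward count ran from 21 of 150 members, with a mean of 50 or more, to 29 of 170. The shares of all genes under these settings are not given here, so these counts do not set the series apart from other genes. The median log2 ratio of 0.33 was 0.32 with a pseudocount of 5, 0.26 with the means divided by their sum over all genes and 0.35 with the gene IDs of a symbol added up. Taking the ID that bears the symbol in the gene-name table, an alternative chosen after seeing the data, changed the row of 11 symbols and gave 29 members upward. No paired analysis was possible because the columns used carry no replicate number, and for the same reason no replicate could be left out. Depth limits the precision of scarce members, such as znf1180, whose counting interval ran from 1.18 to 2.56.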
